A study of Saccharomyces cerevisiae and Saccharomyces pastorianus with 78 samples.

Results

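The genes of the phospholipid flippases of *Saccharomyces cerevisiae* BY4741, of their accessory subunits and of the kinases that act on them were followed through SDS and ethanol stress. The 8 genes were taken by systematic name from the 7127 features of the BY4741 count table. They are the P4-ATPases DNF1 (YER166W), DNF2 (YDR093W), DNF3 (YMR162C) and DRS2 (YAL026C), the Cdc50-family subunits LEM3 (YNL323W) and CDC50 (YCR094W), and the kinases FPK1 (YNR047W) and KIN82 (YCR091W). All 8 were among the 6101 features that passed the low-count filter, with 93 to 6048 counts per library.

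Poly(A) RNA was sequenced from wild-type BY4741, a haploid laboratory strain, which was kept at 25 °C in YPD and treated once OD595 was near 0.1. The 12 stressed groups received either 7% EtOH or 0.01% SDS, an anionic detergent, and were sampled at 6 times, at 0.5, 1 and 2 h and then at 4, 8 and 20 h after addition. The control was collected before any addition, and each of the 13 groups had 3 biological replicates, 39 libraries in all. Each culture was divided before treatment, and the control came only from the portion later given EtOH. SDS cells therefore lack a control of their own, both stresses share 1 set of controls, and hours after addition cannot be told apart from culture age. LEU2, MET17 and URA3, which this strain background lacks, had 0 counts in all 39 libraries. Totals per library were 3105804 to 21167236 counts (median 7706767). EtOH 20 h replicates 3 and 1 correlated least with the other libraries of their group (0.957 and 0.974 on log2 CPM), so the larger changes at EtOH 20 h are also given without replicate 3.

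Flippases use ATP to move phospholipids from the outer or luminal leaflet of a membrane to its cytosolic leaflet, which keeps phosphatidylserine and phosphatidylethanolamine on the cytosolic side. Dnf1 and Dnf2 act mainly at the plasma membrane and need the subunit Lem3 to leave the endoplasmic reticulum. Drs2 acts with Cdc50 in the trans-Golgi network and endosomes, and Dnf3 is also found there and at the cell surface. Fpk1 and its paralog Kin82 phosphorylate and activate Dnf1 and Dnf2, and the kinase Ypk1, under the TORC2 complex at the plasma membrane, restrains Fpk1.

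The P4-ATPase genes are related in sequence, which bears on whether their reads can be told apart. Each of the 4 coding sequences held 1 match to the signature of P-type ATPases, the aspartate that takes the phosphate from ATP followed by lysine, threonine, glycine and threonine. The stretches around it are shown because it is the catalytic centre that the 4 enzymes share (RefSeq, build R64, coding strand; capitals mark the 15 bases of the signature, which begin at codon 667 in DNF1, 712 in DNF2, 566 in DNF3 and 560 in DRS2).
DNF1 (chrV:514724-514774, plus strand): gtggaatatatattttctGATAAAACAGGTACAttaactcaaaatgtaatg
DNF2 (chrIV:633397-633447, plus strand): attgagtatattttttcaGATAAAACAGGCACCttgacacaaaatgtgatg
DNF3 (chrXIII:582194-582244, minus strand): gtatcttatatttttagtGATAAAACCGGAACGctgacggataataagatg
DRS2 (chrI:97988-98038, minus strand): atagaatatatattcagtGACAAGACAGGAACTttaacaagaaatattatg
DNF1 and DNF2 were identical at 13 of these 15 bases, and DRS2 was identical to each of the other 3 at 11. Over the whole aligned coding sequence, DNF1 and DNF2 shared 66.3% of bases, FPK1 and KIN82 52.6%, and LEM3 and CDC50 48.3%. No 50-base stretch of any of the 8 coding sequences occurred a second time in the genome. The recognition motif of the flippase kinases (arginine, any residue, serine, then leucine or tyrosine, then aspartate or glutamate) matched 5 times in translated DNF1, 4 times in DNF2, 2 times in DNF3 and 0 times in DRS2. A match is a description of the letters and does not show a phosphorylated site. DRS2 overlaps the noncoding RNA gene HRA1 by 393 bp on the opposite strand. The strand setting of the counting is not given in the sources used here, and HRA1 itself had at most 3 counts in any library.

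Levels were compared between genes as CPM (counts scaled to a common library size by TMM) per kb of coding length. In the control, the subunit genes held the most transcript per length, LEM3 at 74.6 ± 2.32 and CDC50 at 66.2 ± 2.98 CPM per kb (SD, n = 3). DNF2 followed at 60.3 ± 1.85 CPM per kb, then DNF1 at 43.0 ± 2.55, DRS2 at 40.5 ± 2.54 and DNF3 at 25.9 ± 1.54. The kinase genes were lowest, FPK1 at 16.9 ± 2.61 and KIN82 at 13.4 ± 2.64 CPM per kb. Only the neighbours DNF1 and DRS2, and FPK1 and KIN82, overlapped between control libraries. The order LEM3, CDC50, DNF2 at the top held for the group means in all 6 SDS groups and in EtOH to 2 h. Libraries of CDC50 and DNF2 overlapped in each SDS group. Those of LEM3 and CDC50 overlapped in SDS at 4, 8 and 20 h and in EtOH at 0.5, 1 and 2 h. At EtOH 4 h CDC50 stood first, at 54.3 ± 1.45 against 51.2 ± 1.28 CPM per kb for LEM3. At EtOH 8 h DNF1 stood first with 50.7 ± 2.38 CPM per kb, although its libraries overlapped those of DNF2. At EtOH 20 h each neighbour in the order overlapped the next except DNF3 and KIN82.

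**Figure D1:**
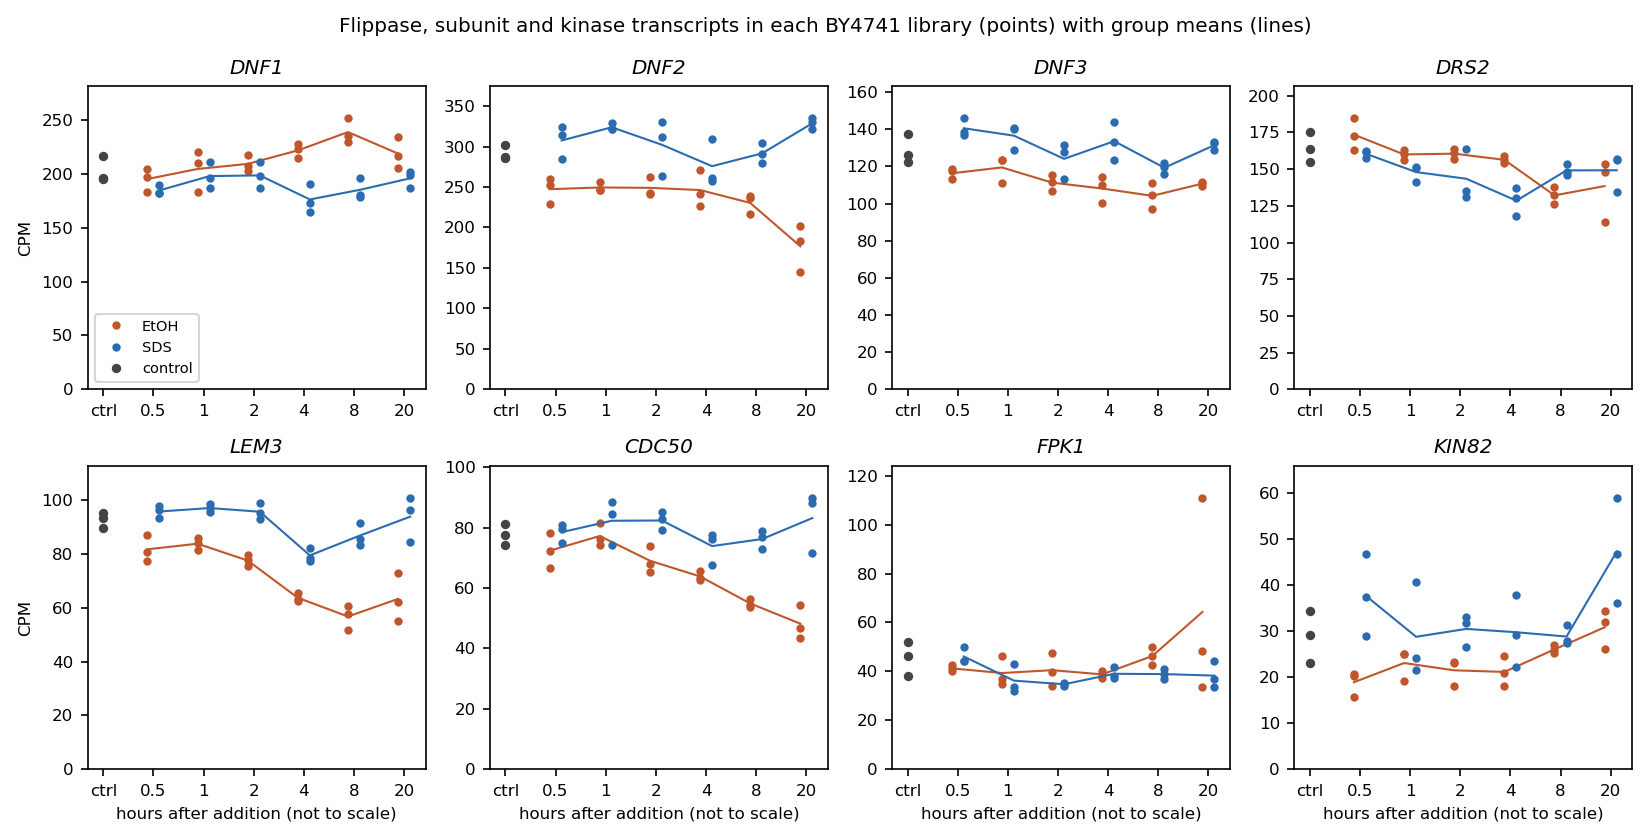
CPM of each gene in each library (points) against time after addition, with the control at the left, EtOH in orange, SDS in blue and lines through the group means (n = 3). LEM3, CDC50 and DNF2 declined in EtOH while the SDS points stayed near the control, and 1 EtOH 20 h library of FPK1 stands at 111 CPM.

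In EtOH, flippase transcripts shifted by a log2 change of less than 1, mostly downward, and passed the adjusted p more often at later times. None of the 48 comparisons of the 8 genes at 6 times against the control passed both an adjusted p under 0.05 and an absolute log2 change of at least 1 in edgeR, where 6.08% of all gene-by-time tests did. DESeq2 also called 0. At an adjusted p under 0.05 with any size of change, 18 of 48 passed, 2 higher and 16 lower, against 33.9% of all tests, of which 16.4% were higher and 17.5% lower. The median log2 change of the 48 was -0.21, against 0 over all tests, and 25 of 48 had an unadjusted p under 0.05. Of the 48 confidence intervals (95%), 47 lay within a log2 change of 1 in either direction. For counts at an unadjusted p and for intervals, here and below, the share over all genes was not computed. These counts describe the 8 genes only. CPM are relative to total mRNA, so less transcript per cell and fewer cells holding it cannot be told apart.

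The number of genes past the adjusted p rose with time, but not every gene fell further with time. DNF2 was at -0.24 both at 0.5 h (edgeR adjusted p = 0.0916) and at 4 h (0.041). KIN82 was lowest at 0.5 h (-0.61). None of 8 genes passed the adjusted p at 0.5 h (14.2% of all genes) or 1 h (15.2%), where 4 and 1 had an unadjusted p under 0.05. DESeq2 put 1 past it at 0.5 h (KIN82) and 0 at 1 h. Fitted on only the 6 compared libraries, DNF2 (edgeR adjusted p = 0.00745), LEM3 (0.0367) and KIN82 (0.012) passed at 0.5 h. DNF2 also passed at 1 and 2 h in these fits, and DNF3, DRS2 and FPK1 no longer passed at 20 h. In the main fit the adjusted p was passed by 2 genes after 2 h (23%), 4 after 4 h (38.2%), and 6 each after 8 h (53.9%) and 20 h (58.8%). At 20 h without replicate 3 it was 4, all lower, against 52.4% of all genes. In the F test over the 6 times all 8 genes passed the adjusted p (6 without EtOH 20 h replicate 3), as did 78% of all genes, and 0 reached a log2 change of 1, as 18.1% did. The number of flippase genes past the threshold climbed as that of all genes did, and 16 of the 18 were lower.

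**Figure D2:**
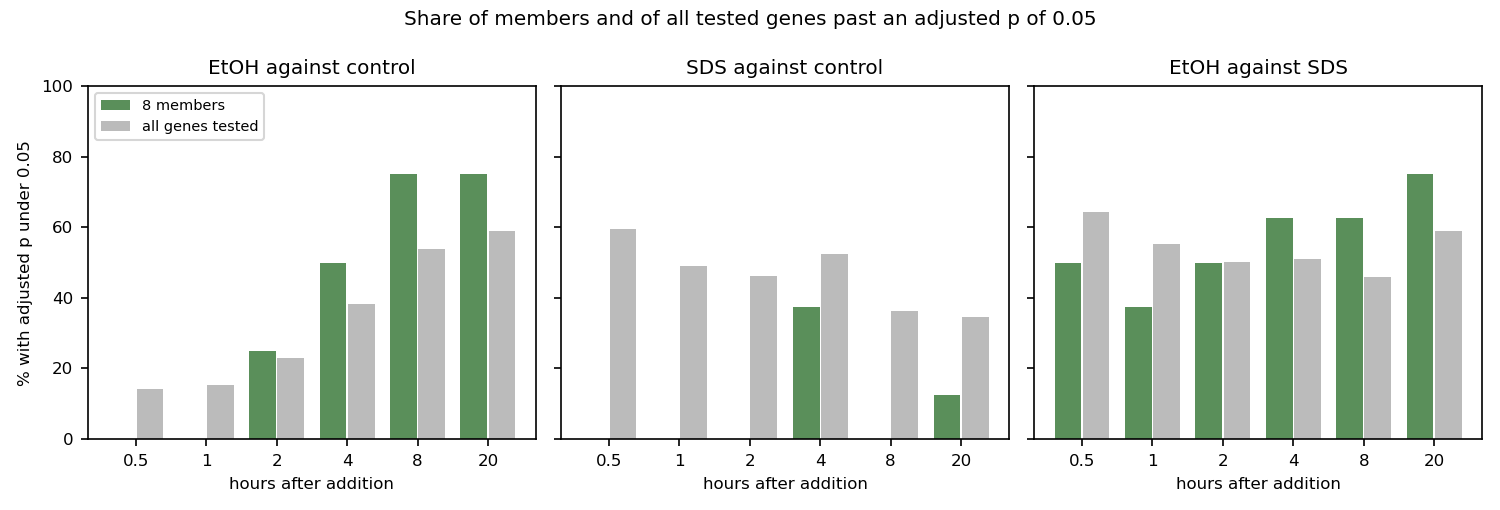
Share of the 8 genes (green) and of all 6101 tested genes (grey) with an adjusted p under 0.05 at each time, for EtOH against control, SDS against control and EtOH against SDS. In EtOH the green bars climb with the grey ones to 6 of 8 at 8 and 20 h, while in SDS the green bars stand below the grey ones at each time, at 0 for 4 of the 6 times.

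LEM3, the subunit that Dnf1 and Dnf2 need, had the largest fall at 8 h. Its EtOH 8 h libraries held 60.8, 57.7 and 51.9 CPM, against 93.6, 95.3 and 89.7 CPM in the control. The groups did not overlap, and the log2 change was -0.70 ± 0.08 (SE; edgeR adjusted p = 9.27e-09). LEM3 had already fallen at 2 h (-0.26 ± 0.08) and 4 h (-0.54 ± 0.08). At 20 h it was at 73.1, 62.0 and 55.0 CPM in EtOH, again all below the control, with a log2 change of -0.55, or -0.46 without replicate 3. The 2 h call was lost with control replicate 2 or EtOH 2 h replicate 3 left out, and the later 3 were kept under every alternative.

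CDC50, the partner subunit of Drs2, fell later. It had 54.3, 46.9 and 43.4 CPM in EtOH at 20 h, against 77.8, 81.4 and 74.4 CPM in the control. All 3 EtOH libraries were below all 3 controls, and the log2 change was -0.69 ± 0.09 (edgeR adjusted p = 9.68e-08), or -0.62 without replicate 3. The change was -0.50 at 8 h and -0.29 at 4 h, both past the adjusted p, and -0.01 at 1 h with overlapping libraries.

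DNF2, one of the plasma membrane flippase genes, fell most at 20 h, with 202, 183 and 145 CPM in EtOH, against 287, 286 and 302 CPM in the control. The log2 change was -0.72 ± 0.10 (edgeR adjusted p = 1.87e-07), or -0.60 without replicate 3. From 0.5 to 8 h it lay between -0.23 and -0.34, with all EtOH libraries below the controls at each time. Of those 5 differences, the ones at 4 and 8 h passed the adjusted p. The 4 h call was lost in 5 of its 6 single-library omissions, and the 8 h call without EtOH 8 h replicate 1 (-0.24).

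DNF1, its paralog, did the reverse. It had 230.1, 235 and 252 CPM in EtOH at 8 h, against 217, 195 and 197 CPM in the control. The groups did not overlap, and the log2 change was 0.24 ± 0.08 (edgeR adjusted p = 0.00959), kept under every alternative. At the other 5 times its log2 change lay between -0.05 and 0.13 and did not pass.

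The Golgi and endosomal flippase genes fell by less. DRS2 had 138, 132 and 126 CPM in EtOH at 8 h, against 176, 155 and 164 CPM in the control (log2 change -0.32 ± 0.09, edgeR adjusted p = 0.00313). At 20 h its change was -0.25 and passed, but it did not pass without replicate 3 (-0.13) or without control replicate 1 (-0.21). DNF3 had 111, 105 and 96.9 CPM in EtOH at 8 h, against 137, 126 and 123 CPM in the control (log2 change -0.30 ± 0.07, edgeR adjusted p = 0.000556). It also passed at 2, 4 and 20 h, with log2 changes of -0.21, -0.25 and -0.22. The calls at 2 and 20 h were lost without control replicate 1, at -0.16 and -0.17, and the 2 h call also without control replicate 2 or EtOH 2 h replicate 2 or 3.

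The kinase genes were the least precisely measured, with standard errors of about 0.2. These rest on 1 fit per gene over all 39 libraries, which for FPK1 includes an EtOH 20 h library at 111 CPM. The spread of FPK1 within groups (SD) ran from 34.7 ± 0.54 CPM in SDS at 2 h to 64.3 ± 40.9 CPM in EtOH at 20 h. In the control it was 45.3 ± 7.00 CPM. FPK1 had 33.7, 48.4 and 111 CPM in EtOH at 20 h, against 51.9, 46.1 and 38.0 CPM in the control. The groups overlapped, and 1 library stood far above the rest. The log2 change of 0.51 ± 0.22 passed the adjusted p (0.0483, edgeR). Without replicate 3 it was -0.15 with an adjusted p of 0.425, and the call was also lost without control replicate 2 (0.52) or 3 (0.39). KIN82 had 20.3, 20.6 and 15.8 CPM in EtOH at 0.5 h, all below the control at 34.5, 29.1 and 23.1 CPM. Its log2 change of -0.61 ± 0.22 did not pass (edgeR adjusted p = 0.0558). With replicate number as a block it was -0.60 and passed (edgeR adjusted p = 0.00891). KIN82 fell in order from replicate 1 to replicate 3 in the control and in each SDS group, which the main fit counts as spread. In EtOH that order held only at 1 and 2 h, and it was reversed at 20 h. Cultures were divided before treatment, but the labels do not say whether a number marks a shared culture.

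**Figure D3:**
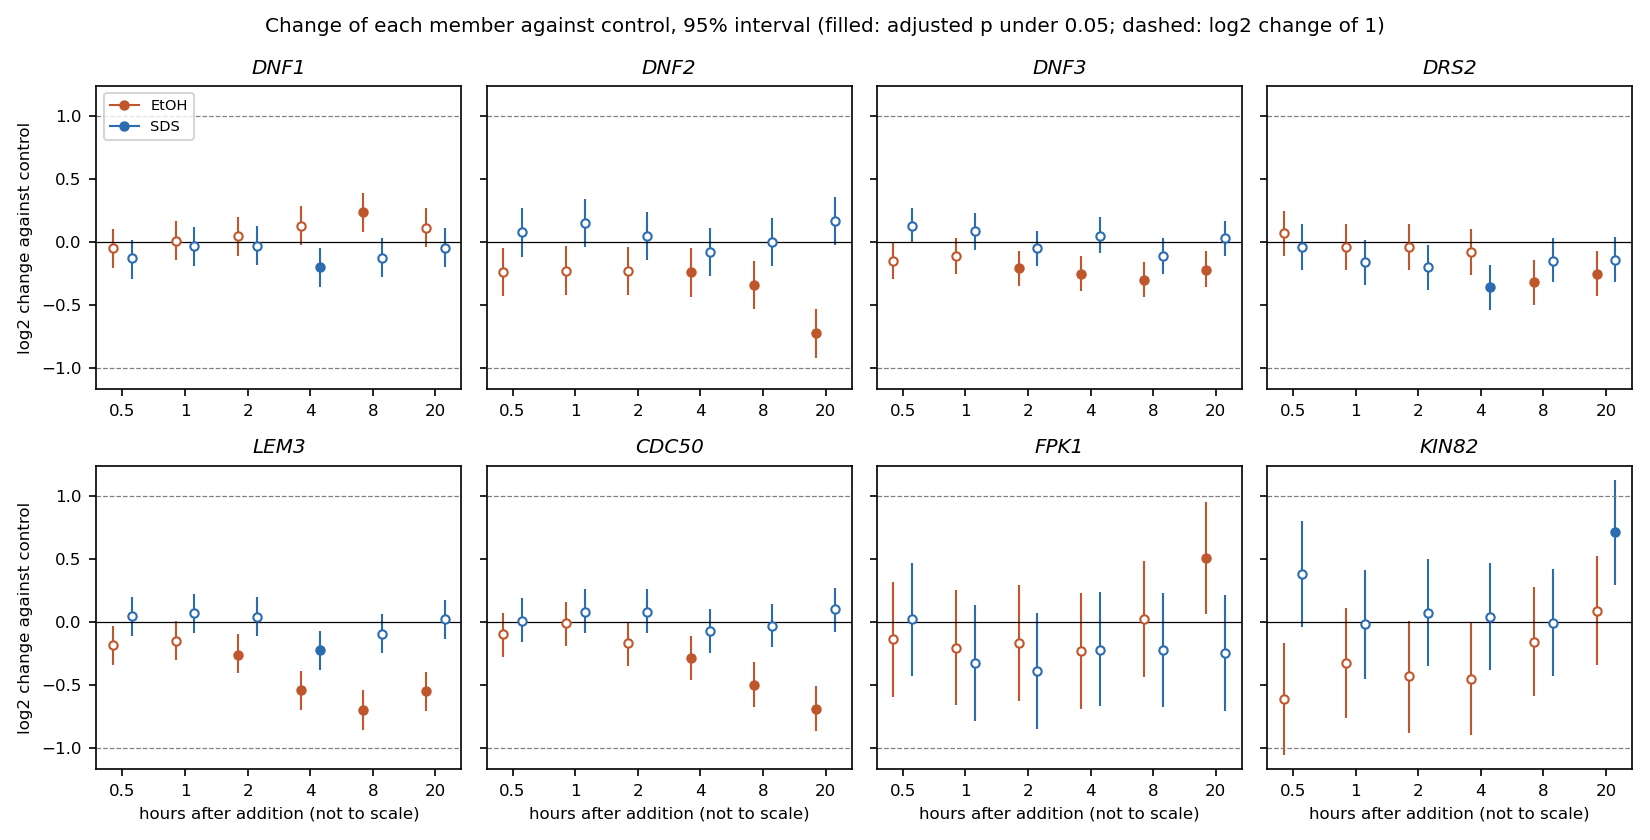
Log2 change of each gene against the control at each time with its 95% interval, EtOH in orange and SDS in blue, filled where the adjusted p is under 0.05, with dashed lines at a log2 change of 1 in either direction. The largest falls are those of LEM3 at 8 h (-0.70), CDC50 at 20 h (-0.69) and DNF2 at 20 h (-0.72), and the intervals of FPK1 and KIN82 are the widest.

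In SDS the flippase genes moved little while much of the genome moved. None of 48 tests passed both limits in edgeR, where 10.2% of all tests did, and DESeq2 called 0 as well. At the adjusted p alone 4 of 48 passed, 1 higher and 3 lower, against 46.4% of all tests (23.9% higher and 22.5% lower), and 5 of 48 had an unadjusted p under 0.05. The count was 2 without SDS 4 h replicate 2 and 7 without EtOH 20 h replicate 3. The latter library is in neither group but enters the fit that gives each gene its spread. Fits of only the 6 compared libraries also gave 7. What moved the count was not tested. At 0.5 h 59.4% of all genes passed the adjusted p and 19.1% passed both limits. Of 8 flippase genes 0 did either, with 0 at an unadjusted p under 0.05 and 0 past the adjusted p in DESeq2. Under other settings DNF1 (-0.16) passed the adjusted p when fitted on only the 6 compared libraries. DNF3 (0.18) passed it without the low-count filter, and KIN82 (0.38) with replicate number as a block. In the main fit the number past the adjusted p was also 0 of 8 at 1 h (49.1% of all genes), 2 h (46.3%) and 8 h (36.4%), with 0, 1 and 0 at an unadjusted p under 0.05. It was 1 at 20 h (34.7%). The median absolute log2 change of the 48 tests was 0.08, against 0.31 over all tests. Of the 48 confidence intervals, 47 lay within a log2 change of 1. In the F test over the 6 times 4 of 8 genes passed the adjusted p (DNF3, DRS2, LEM3 and KIN82), against 81.2% of all genes, and 0 reached a log2 change of 1, as 25% did.

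The falls past the adjusted p in SDS were at 4 h, where 52.4% of all genes passed it. DRS2 had 137, 118 and 130.0 CPM in SDS at 4 h, against 176, 155 and 164 CPM in the control. The groups did not overlap, and the log2 change of -0.36 ± 0.09 (edgeR adjusted p = 0.000975) was kept under every alternative. LEM3 (-0.22 ± 0.08) and DNF1 (-0.20 ± 0.08) also fell at 4 h, but both calls were lost without SDS 4 h replicate 2. That of DNF1 was also lost without SDS 4 h replicate 3 or control replicate 1, and that of LEM3 without control replicate 2. The higher call was KIN82 at 20 h, with 58.9, 46.8 and 36.0 CPM in SDS, against 34.5, 29.1 and 23.1 CPM in the control. Each SDS library was above each control, and the log2 change was 0.71 ± 0.21 (edgeR adjusted p = 0.00801). It was 0.57 and did not pass without control replicate 3, and 0.52 and did not pass without SDS 20 h replicate 1.

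DNF2 and CDC50, which fell in EtOH, did not pass at any time in SDS in the main fit. Their log2 changes there were -0.08 to 0.17 and -0.07 to 0.10. At SDS 20 h DNF2 had 330.4, 321 and 335 CPM, all above the control libraries (log2 change 0.17, 95% interval -0.02 to 0.36). FPK1 did not pass in SDS either, with a log2 change below 0 at 5 of 6 times. At SDS 2 h it was -0.39 ± 0.23 (edgeR adjusted p = 0.164), with 34.9, 35.1 and 34.1 CPM, all below the control. Fitted on only the 6 compared libraries, FPK1 passed at 2 h (edgeR adjusted p = 0.0217), and DNF2 at 1 h (0.18) and 20 h (0.16).

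The stresses were then compared with each other at matched times, which does not use the controls. Flippase transcripts were mostly lower in EtOH than in SDS. None of 48 tests passed both limits in edgeR or DESeq2, where 14% of all tests did in edgeR. At the adjusted p alone 27 of 48 passed, 4 higher and 23 lower in EtOH, against 54.3% of all tests, of which 26.4% were higher and 27.9% lower. By time, the number was 4 after 0.5 h (64.4%), 3 after 1 h (55.3%), 4 after 2 h (50.2%), 5 after 4 h (51.1%), 5 after 8 h (46%) and 6 after 20 h (58.9%). Of the 48, 30 had an unadjusted p under 0.05. The median log2 difference was -0.19, against 0 over all tests. LEM3 was lower in EtOH at all 6 times, with log2 differences of -0.21 to -0.61, and DNF2 and DNF3 at 5 of 6. CDC50 was lower at 2, 4, 8 and 20 h, and KIN82 at 0.5, 2 and 20 h. Some of these calls were lost with single libraries left out. They were LEM3 at 0.5 and 1 h, DNF2 at 2 and 8 h, DNF3 at 1 and 8 h, CDC50 at 2 and 4 h, and KIN82 at 2 and 20 h. The call of DNF3 at 20 h was lost when only the 6 compared libraries were fitted. In the F test over the 6 times 7 of 8 genes passed the adjusted p, against 90.3% of all genes, and 0 reached a log2 difference of 1, as 36.4% did. Without EtOH 20 h replicate 1, DNF2 (-1) and FPK1 (1.06) reached it at 20 h. KIN82 at 0.5 h was just short of it at -0.99 and ranged from -1.15 to -0.81 over the alternatives.

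At 20 h DNF2 had 202, 183 and 145 CPM in EtOH, against 330.4, 321 and 335 CPM in SDS, a log2 difference of -0.90 ± 0.10 (edgeR adjusted p = 3.3e-09). CDC50 had 54.3, 46.9 and 43.4 CPM in EtOH, against 88.4, 89.8 and 71.6 CPM in SDS (log2 difference -0.79 ± 0.09, edgeR adjusted p = 7.46e-09). Neither pair of groups overlapped, and without EtOH 20 h replicate 3 the differences were -0.77 and -0.72. DNF1 ran the other way, at 230.1, 235 and 252 CPM in EtOH at 8 h, against 179, 196 and 181 CPM in SDS (log2 difference 0.37 ± 0.08, edgeR adjusted p = 0.000212). It was also higher in EtOH at 4 h, by 0.33. DRS2 was higher in EtOH at 4 h (0.28 ± 0.09), a call lost without SDS 4 h replicate 2.

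KIN82 showed the largest difference of the family. At 0.5 h it had 20.3, 20.6 and 15.8 CPM in EtOH, against 46.8, 37.3 and 28.9 CPM in SDS. All EtOH libraries were below all SDS libraries, and the log2 difference was -0.99 ± 0.22 (edgeR adjusted p = 0.00015). Its lower values in EtOH at 2 h (-0.51) and 20 h (-0.62) lost the call with single libraries left out, as with SDS 20 h replicate 1 (-0.43 at 20 h). FPK1 was higher in EtOH at 20 h (0.75 ± 0.22, edgeR adjusted p = 0.00441), but the difference was 0.10 and did not pass without EtOH 20 h replicate 3.

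The change over time within each stress was tested from 0.5 to 20 h. In EtOH at 20 h against EtOH at 0.5 h, 6 of 8 genes passed the adjusted p, 2 higher and 4 lower, against 60% of all genes (31.6% higher and 28.4% lower). CDC50 (-0.59 ± 0.09), DNF2 (-0.48 ± 0.10), LEM3 (-0.37 ± 0.08) and DRS2 (-0.33 ± 0.09) were lower, at -0.52, -0.36, -0.28 and -0.20 without EtOH 20 h replicate 3. KIN82 (0.71 ± 0.22) and FPK1 (0.64 ± 0.22) were higher, but without that library FPK1 was at -0.01, KIN82 at 0.62 and DNF1 passed at 0.21. Fitted on only the 6 compared libraries, 2 genes passed. In SDS at 20 h against SDS at 0.5 h, 0 of 8 passed in edgeR and 0 in DESeq2, with 0 at an unadjusted p under 0.05, against 50.9% of all genes. The difference between the stresses in this change passed for 4 of 8 genes, against 60.9% of all genes. It was -0.67 ± 0.12 for CDC50, -0.58 ± 0.13 for DNF2, -0.34 ± 0.11 for LEM3 and 0.91 ± 0.32 for FPK1. Without EtOH 20 h replicate 3 these were -0.60, -0.46, -0.25 and 0.26, the last not past the adjusted p.

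Ratios within a library do not depend on its scaling and show which partner holds more transcript. DNF1 over DNF2 had a log2 ratio of CPM per kb of -0.49 ± 0.11 in the control (SD, n = 3). In EtOH it was -0.30, -0.25, -0.21, -0.11, 0.09 and 0.36 from 0.5 to 20 h, so DNF1 exceeded DNF2 at 8 and 20 h. The 20 h libraries were at 0.25, 0.29 and 0.54, the highest being replicate 3. In SDS it stayed between -0.56 and -0.71. The EtOH ratio was above the SDS ratio in every library at each of the 6 times, by 0.35 to 1.07, with an exact two-sided permutation p of 0.1 at each, the smallest that 3 against 3 libraries allow.

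Subunit transcript was then set against that of its ATPases, ratios chosen after the data were seen. LEM3 over the sum of DNF1 and DNF2 had a log2 ratio of -1.11 ± 0.18 in EtOH at 8 h and -0.93 ± 0.05 at 4 h, against -0.47 ± 0.07 in the control. The groups did not overlap (exact permutation p = 0.1, the smallest possible). At EtOH 20 h the ratio was -0.71 ± 0.06, with libraries at -0.64, -0.75 and -0.74. CDC50 over DRS2 was at 0.27 ± 0.17 in EtOH at 20 h (libraries at 0.34, 0.08 and 0.40), against 0.94 ± 0.26 in SDS at 20 h and 0.71 ± 0.13 in the control. FPK1 over KIN82 was at 0.83 ± 0.25 in EtOH at 0.5 h and -0.60 ± 0.28 in SDS at 20 h, against 0.35 ± 0.06 in the control. These EtOH libraries all lay above the control and these SDS libraries all below it. The same held for EtOH at 2 h and for SDS at 2 and 8 h. The ratio of FPK1 over KIN82 overlapped the control in EtOH at 1, 4, 8 and 20 h and in SDS at 0.5, 1 and 4 h. LEM3 over CDC50 was at 0.17 ± 0.02 in the control, with group means of 0.03 to 0.21 in SDS and -0.09 to 0.31 in EtOH.

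**Figure D4:**
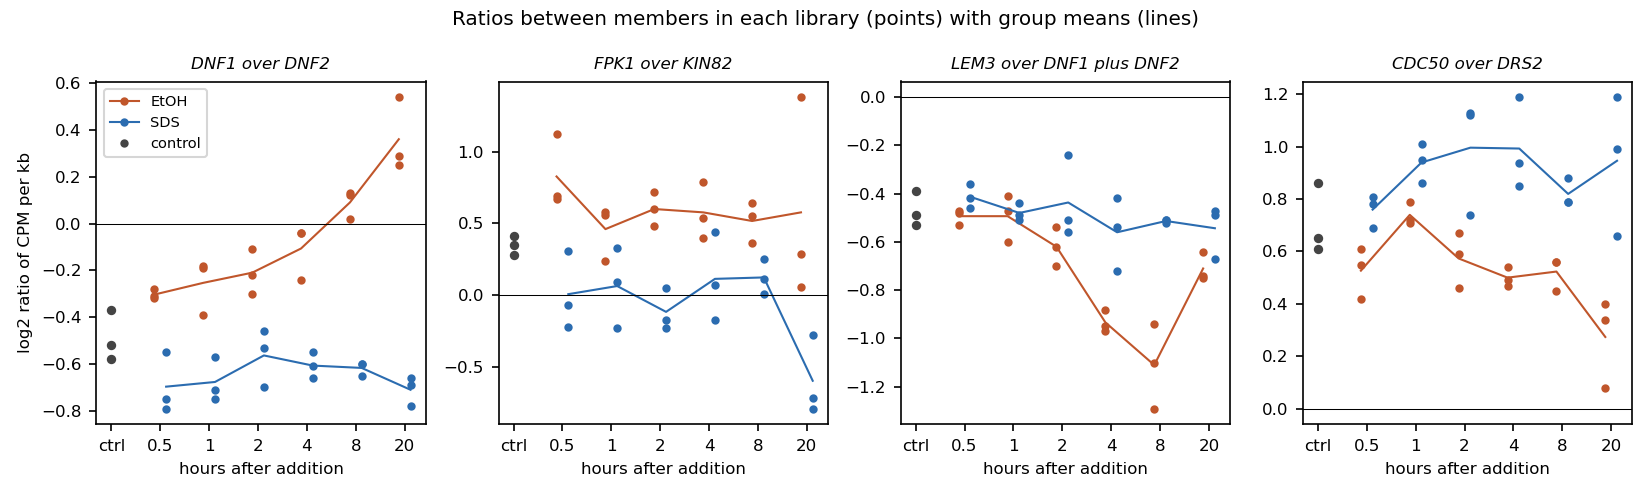
Log2 ratio of CPM per kb between genes in each library (points), with the control at the left, EtOH in orange, SDS in blue and lines through the group means (n = 3); time is not to scale. DNF1 over DNF2 climbs in EtOH from -0.30 at 0.5 h to 0.36 at 20 h and stays below -0.40 in each SDS library, and LEM3 over DNF1 plus DNF2 reaches -1.11 in EtOH at 8 h.

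The 8 genes did not move as a block over the 13 groups. Pearson correlations of group mean log2 CPM, given as a description of 13 points that share libraries, were 0.92 for LEM3 with CDC50, 0.92 for DNF2 with CDC50 and 0.83 for DNF2 with LEM3. DNF1 ran against DNF3 (-0.80) and LEM3 (-0.75), and FPK1 with KIN82 gave 0.08. The widest ranges of group means on the log2 scale were those of KIN82 (1.29), DNF2 (0.91), CDC50 (0.78) and LEM3 (0.77). Among the 4831 genes that averaged 20 CPM or more, those most like LEM3 were WBP1, an oligosaccharyltransferase subunit gene (r = 0.98), HOM6, a homoserine dehydrogenase gene (0.975), and VMA2, a vacuolar ATPase subunit gene (0.971). Those most like CDC50 were CAM1, a translation elongation factor gene (0.982), FMP42 (0.979) and PHS1, a fatty acid elongation gene (0.97). Those most like DNF2 were YNL040W (0.957), PFA4, a palmitoyltransferase gene (0.949), and GRX4, a glutaredoxin gene (0.943). Those most like KIN82 were MNR2, a vacuolar magnesium transporter gene (0.901), NAM8, a splicing factor gene (0.895), and PEX29, a peroxisomal membrane protein gene (0.887).

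The promoters of DNF2, LEM3 and CDC50 are shown because these genes fell together in EtOH, and that of KIN82 because its level ranged most widely. Each window holds 250 bases before the start codon and 50 from it on (RefSeq, build R64, coding strand). Capitals mark matches to the motifs searched on both strands, which were AGGGG (Msn2/4), TCCGCGGA (Pdr1/3), GAANNTTC (heat shock factor), CATGTG (Ino2/4) and GNGGCTG (Crz1).
DNF2 (chrIV:631032-631331, plus strand): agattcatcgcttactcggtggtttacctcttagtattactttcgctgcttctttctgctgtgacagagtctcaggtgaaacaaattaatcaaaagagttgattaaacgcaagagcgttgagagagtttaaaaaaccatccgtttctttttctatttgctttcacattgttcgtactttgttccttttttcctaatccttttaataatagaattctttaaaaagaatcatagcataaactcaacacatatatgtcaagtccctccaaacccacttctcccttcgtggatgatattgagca
LEM3 (chrXIV:31694-31993, plus strand): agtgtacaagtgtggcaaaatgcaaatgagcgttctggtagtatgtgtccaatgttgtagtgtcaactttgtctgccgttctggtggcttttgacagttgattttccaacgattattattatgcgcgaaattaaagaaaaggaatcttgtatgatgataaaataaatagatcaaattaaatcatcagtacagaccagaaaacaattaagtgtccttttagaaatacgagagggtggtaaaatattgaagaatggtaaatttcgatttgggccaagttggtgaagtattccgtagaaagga
CDC50 (chrIII:286512-286811, plus strand): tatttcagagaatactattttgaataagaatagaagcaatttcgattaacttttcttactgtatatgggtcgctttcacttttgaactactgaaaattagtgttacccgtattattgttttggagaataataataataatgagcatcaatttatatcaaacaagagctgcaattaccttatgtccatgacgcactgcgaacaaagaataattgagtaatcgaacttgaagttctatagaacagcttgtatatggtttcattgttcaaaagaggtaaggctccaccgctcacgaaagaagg
KIN82 (chrIII:274154-274453, plus strand): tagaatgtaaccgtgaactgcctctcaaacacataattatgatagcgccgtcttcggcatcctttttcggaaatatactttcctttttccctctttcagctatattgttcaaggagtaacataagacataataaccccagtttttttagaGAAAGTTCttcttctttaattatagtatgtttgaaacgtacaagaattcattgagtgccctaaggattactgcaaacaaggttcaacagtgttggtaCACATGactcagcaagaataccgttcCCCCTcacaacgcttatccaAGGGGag
The windows of DNF2, LEM3 and CDC50 held no match, nor did those of DNF1 and DNF3. KIN82 held GAANNTTC at -100 from the start codon and AGGGG at 23 and 43, inside the coding sequence. It also held CATGTG at -3, a match that takes in the start codon itself. FPK1 held adjoining matches to GAANNTTC at -51 and AGGGG at -43, and DRS2 held AGGGG at -94. Over all 6001 windows of this length, AGGGG was in 21.6%, GAANNTTC in 11.8%, CATGTG in 6.93%, GNGGCTG in 5.07% and TCCGCGGA in 0.217%. A match is not a bound site, and no match says only that these letters are not in the window.

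Genes around the flippases were read from 4 lists. NEO1, the fifth P4-ATPase gene, which is essential and acts in the Golgi and endosomes, fell in EtOH at 2, 4 and 8 h, by a log2 change of -0.26, -0.31 and -0.31. At EtOH 20 h it was at -0.17 and did not pass, but at -0.24 without replicate 3 it did (edgeR adjusted p = 0.0394). In SDS it passed at 0.5 h (0.31 ± 0.09) and 20 h (-0.24 ± 0.09). YNR048W, the third Cdc50-family gene, whose product is a partner of Dnf3, rose in SDS at 2 h (0.41 ± 0.11) and 4 h (0.50 ± 0.11) and did not pass at any time in EtOH.

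Of 14 TORC2, Ypk1 and related kinase genes, 6 were higher and 1 lower in SDS at 0.5 h past the adjusted p, where 59.4% of all genes passed. Their median log2 change was 0.15, against 0.02 over all genes. YPK1, whose product restrains Fpk1, was the only one past a log2 change of 1, at 696 ± 14.9 CPM in SDS at 0.5 h, against 281 ± 12.2 CPM in the control (log2 change 1.31 ± 0.08, edgeR adjusted p = 4.38e-15). In EtOH YPK1 was at 158 ± 15.5 CPM at 20 h (log2 change -0.83 ± 0.08, or -0.84 without replicate 3). Of the 14 genes, 6 were higher and 1 lower at that time, against 58.8% of all genes past the adjusted p. Their median log2 change was 0.18, against 0.03 over all genes. Without replicate 3, 4 were higher and 2 lower with a median of 0.08, against 52.4% of all genes. YPK2, the paralog of YPK1, fell in EtOH at 0.5 h (-1.01 ± 0.23), to 37.65 ± 6.94 CPM, against 75.96 ± 11.25 CPM in the control. In SDS YPK2 was at 43.01 ± 7.62 CPM at 0.5 h and 140.7 ± 40.87 CPM at 20 h. LST8, a subunit shared by TORC1 and TORC2, was past both limits at all 6 EtOH times, at 194 to 350 CPM at 0.5 h, against 73.9 to 84.9 CPM in the control. At EtOH 20 h LST8 spread over 92.9, 244 and 1216 CPM, highest in replicate 3, the library in which FPK1 was high. Its log2 change there was 2.73 ± 0.47, and 1.11 without that library; its part in the FPK1 result was not tested.

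Of 12 Golgi and endosomal partner genes, 7 were lower and 1 higher in EtOH at 8 h, where 53.9% of all genes passed the adjusted p. Their median log2 change was -0.33, against 0.01 over all genes. At 20 h 8 were lower and 2 higher, against 58.8% of all genes, with a median of -0.40 against 0.03. Without replicate 3, 7 were lower and 1 higher with a median of -0.32, against 52.4% of all genes. None of the 12 passed a log2 change of 1 against the control at any time. At 20 h ARL1, a Golgi GTPase gene, was at -0.99 ± 0.11, KES1, which encodes an oxysterol-binding protein that opposes Drs2, at -0.95 ± 0.08, and GEA2, an Arf exchange factor gene, at -0.74 ± 0.10. Without replicate 3 they were at -0.89, -0.92 and -0.59. In SDS at 0.5 h 2 of the 12 were higher and 2 lower, against 59.4% of all genes past the adjusted p.

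Of 7 genes for lipid substrates and outward lipid transport, 3 were higher and 0 lower in SDS at 0.5 h past the adjusted p, where 59.4% of all genes passed. YOR1, a plasma membrane transporter gene tied to outward phospholipid movement, rose to 799 ± 54.6 CPM in SDS at 0.5 h, against 233 ± 13.3 CPM in the control (log2 change 1.78 ± 0.11, edgeR adjusted p = 2.36e-15). CHO1, the phosphatidylserine synthase gene, rose by 1.04 ± 0.10 at the same time, and RSB1, a sphingoid base export gene, by 1.34 ± 0.17 in SDS at 20 h. In EtOH the transporter gene PDR5 fell to 1902 ± 144 CPM at 20 h, against 6259 ± 276 CPM in the control (log2 change -1.72 ± 0.11, edgeR adjusted p = 1.8e-13, or -1.67 without replicate 3). RSB1 fell by 1.03 in EtOH at 1 h. In EtOH at 8 h 4 of the 7 genes were higher and 3 lower, against 53.9% of all genes past the adjusted p.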

How the data were processed

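Poly(A) RNA-seq of 39 BY4741 libraries in 13 groups was used, and the *S. pastorianus* table was not used here. The authors deposited raw counts per gene, whole numbers without normalization. The submitters' processing notes name FastQC 0.11.9, Trimmomatic 0.39, STAR 2.7.8, featureCounts 2.0.1 and build R64, which is also the build of the RefSeq sequences. How strand and multimapped reads were handled is not stated in those notes or the labels.

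From these counts, edgeR 4.0.16 (in R 4.3.3) was run with filterByExpr (6101 of 7127 features kept), TMM scaling and a quasi-likelihood fit with 1 coefficient per group over all 39 libraries (26 residual degrees of freedom). P-values were adjusted by Benjamini-Hochberg over all tested genes, with limits of 0.05 and, for a call, an absolute log2 change of 1. Each SE was computed as the size of the log2 change divided by the root of its F statistic. Depth was 3105804 to 21167236 counts per library, so levels of the rarest gene, KIN82, rest on 93 to 642 counts. Intervals and spread cover these samples, and the labels state biological replicates. They do not say whether a replicate number marks a shared culture, so the main fit had no pairing.

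Names followed a fixed rule: all 8 genes, the 3 largest called changes per list and stress, and the 3 genes most correlated with each of the 4 widest-ranging genes. NEO1, YNR048W, the Golgi genes and YPK1 in EtOH, all within a log2 change of 1, were named after their values were seen, as were 2 of the ratios. The members and lists were chosen with earlier results of these data known. Scripts were tested on simulated counts. Alternatives were DESeq2 1.42.0, RLE scaling, no filter, a replicate block, fits of 6 libraries, F tests without 20 h and leaving out each library.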

Additional observations from a re-analysis of the deposited data

Results flagged for a closer look

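The change from 0.5 to 20 h differed between EtOH and SDS in 4 of the 8 genes by the interaction contrast in edgeR, where 60.9% of all genes passed the adjusted p. CDC50 had a log2 difference of -0.67 ± 0.12 (SE; edgeR adjusted p = 1.91e-05), with EtOH 20 h against 0.5 h at -0.59 and SDS 20 h against 0.5 h at 0.09. DNF2 had -0.58 ± 0.13 (edgeR adjusted p = 0.000389), with -0.48 in EtOH and 0.10 in SDS. LEM3 had -0.34 ± 0.11 (edgeR adjusted p = 0.00733), with -0.37 in EtOH and -0.03 in SDS, and its call was lost without EtOH 20 h replicate 2 (-0.26). FPK1 had 0.91 ± 0.32 (edgeR adjusted p = 0.013), with 0.64 in EtOH and -0.27 in SDS, but 0.26 with an adjusted p of 0.262 without EtOH 20 h replicate 3, in which FPK1 stood at 111 CPM. Without that library the values of CDC50, DNF2 and LEM3 were -0.60, -0.46 and -0.25, all past the adjusted p.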

How the results depend on the processing

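Of the member tests past the adjusted p, 1 of 4 in SDS against control, 11 of 18 in EtOH against control and 14 of 27 in EtOH against SDS held under every alternative, each single-library omission included. Against 4 and 6 as reported, fits of only the 6 compared libraries gave 7 past the adjusted p in SDS against control and 2 in EtOH 20 h against 0.5 h. Without the low-count filter 1 gene, KIN82, was called in EtOH against SDS at matched times and 1 over all times, against 0. With single libraries left out, the counts past the adjusted p ranged from 2 (without SDS 4 h replicate 2) to 7 (without EtOH 20 h replicate 3) in SDS against control, from 14 to 20 in EtOH against control and from 24 to 30 in EtOH against SDS. They ranged from 2 to 6 and 6 to 8 for the SDS and EtOH courses, 6 to 8 for EtOH against SDS over all times, 6 to 7 for EtOH 20 h against 0.5 h and 3 to 4 for the interaction. Counts past both limits stayed at 0 except in EtOH against SDS, at matched times and over all times (0 to 2 each), and the interaction (0 to 1). Over single-library omissions, the log2 change turned sign for FPK1 at EtOH 20 h against control (-0.15 without EtOH 20 h replicate 3, up to 0.81 without replicate 1) and against EtOH 0.5 h (-0.01 to 0.95, the same libraries). It turned for DRS2 in EtOH against SDS at 20 h (0.01 without EtOH 20 h replicate 3, down to -0.18) and for KIN82 in EtOH against SDS at 1 h (0.01 without SDS 1 h replicate 1, down to -0.48). The cause was not tested.

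The replicate block gave 5, 20 and 28 past the adjusted p in SDS against control, EtOH against control and EtOH against SDS, against 4, 18 and 27 without it. With the block KIN82 passed in EtOH against control at 0.5 h (-0.60, edgeR adjusted p = 0.00891), 2 h (-0.42, 0.05) and 4 h (-0.44, 0.0284), in SDS against control at 0.5 h (0.38, 0.033) and in EtOH against SDS at 4 h (-0.48, 0.0122), and FPK1 at EtOH 20 h no longer did (0.0533). Same-numbered libraries of compared groups (stress with control, and EtOH with SDS) correlated over 0.1 in 17 of 54 pairs (-0.176 to 0.198). In 31 of 54 a library correlated best with its own number, out of 3 numbers to choose from. Each culture was divided before treatment, but these values do not settle whether a number marks a shared culture. The labels do not say so, and the main fit did not use the numbers. Any spread that follows the numbers therefore stays in its SEs. DESeq2 gave 5, 19 and 29, and RLE scaling 5, 17 and 26. RLE moved the median of all genes by at most 0.03 on the log2 scale. The lowest counts were those of KIN82, 93 to 642 per library. FPK1, at 180 to 1168 counts, was about as deep as LEM3 (187 to 1462), with a SE of 0.22 against 0.08 at EtOH 20 h.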
